A study of Bos taurus with 11 samples.

Results

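The miR-130 and miR-301 family with *miR-454* was described in the mammary gland of lactating Holstein and Montbéliarde cows. Its members were chosen by name and were bta-miR-130a, bta-miR-130b, bta-miR-301a, bta-miR-301b and bta-miR-454, written below without the prefix for *Bos taurus*. All 5 were found among the 796 miRNAs of the count table, and all 5 had enough reads to be among the 550 miRNAs tested for a breed difference. A small RNA library was made from the mammary biopsy of each of 5 Holstein and 6 Montbéliarde cows, and reads were counted per mature miRNA. According to the methods, all cows were in mid-lactation, received the same diet and were sampled at the rear of the udder, and a further Holstein cow was left out because of mastitis. No treatment was applied, and the ages of the cows are not given in the sources used here. Libraries are named by the tags of the sample titles, CNLX1 to CNLX9 for Holstein and CNLX13 to CNLX23 for Montbéliarde, so that an effect tied to the order of the tags cannot be told apart from breed.

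A miRNA guides a silencing complex to mRNAs through its seed, the short stretch near its start that pairs with the target. The 5 members carry the same seed and can therefore recognise largely the same sites. In other tissues the family is known for repressing *PPARG*, the nuclear receptor that drives fat cell differentiation and lipid synthesis. In the RefSeq annotation of a later bovine assembly, the genes of *miR-301a* and *miR-454* lie next to each other inside *SKA2*, a gene of chromosome segregation. The genes of *miR-130b* and *miR-301b* are also direct neighbours, outside any annotated gene, with *SDF2L1* as the gene next to *miR-301b*. The gene of *miR-130a* stands apart from the other members, beside *YPEL4*.

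The counted reads ranged from 6087865 to 16808976 per library. The family held 0.0322% ± 0.0075 (SD, n = 11) of them, between 1914 and 4996 reads per library. Levels are given as normalized read counts, which are raw counts divided by 1 size factor per library. Every one of the known epithelial, leukocyte, endothelial, erythroid and stromal marker miRNAs listed had reads. In bulk tissue, fewer cells of a type and less miRNA per cell cannot be told apart.

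*MiR-130a*, which is known for promoting vessel growth in endothelial cells, was the most abundant member, with a mean normalized read count of 2435 ± 928 (SD, n = 11). *MiR-301a* followed with 653 ± 70.3, and *miR-130b* was at 61.4 ± 25.6. *MiR-454* was at 27.0 ± 7.46 and *miR-301b* at 9.78 ± 6.29. Among the 796 miRNAs of the table, *miR-130a* had rank 85 by mean level, *miR-301a* rank 134 and *miR-301b* rank 357.

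The order of the 5 members was the same in each of the 11 libraries. Read counts of *miR-130a* exceeded those of *miR-301a* by 1.83 ± 0.469 (SD, n = 11) on the log2 scale, and those of *miR-301a* exceeded those of *miR-130b* by 3.49 ± 0.537. The next steps down were narrower, 1.09 ± 0.608 from *miR-130b* to *miR-454* and 1.52 ± 0.785 from *miR-454* to *miR-301b*. Each of the 4 neighbouring pairs differed within libraries (exact sign-flip permutation test, two-sided, adjusted p = 0.000977, the smallest this test can give with 11 libraries). The narrowest gaps in a single library were a *miR-454* count of 1.11 times that of *miR-301b* and a *miR-130b* count of 1.19 times that of *miR-454*. Adaptor ligation favours some small RNAs over others, so the ratios describe reads and not necessarily molecules.

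**Figure D1:**
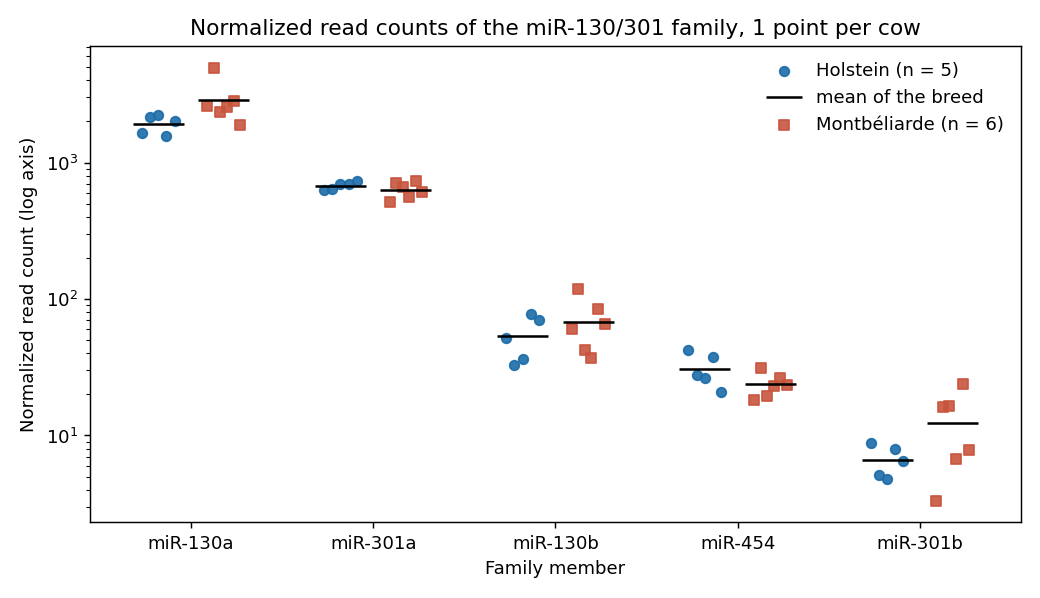
Normalized read counts (log axis) of the 5 family members, with 1 point per cow, Holstein as blue circles and Montbéliarde as red squares, and a black line at the mean of each breed. The members keep 1 order, from *miR-130a* at 2435 on average to *miR-301b* at 9.78, and the breeds overlap for each member.

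The members differed in how steady they were between cows. The coefficient of variation (CV), taken over both breeds together, was lowest for *miR-301a*. It was 10.8% over the 11 libraries, and 9 of the 250 tested miRNAs with a mean normalized read count of at least 50 had a lower one. With 1 library left out it was 8.44% to 11.4%. All CVs here are those of the normalized read counts, and they depend on that scaling because no other was tried for them. The median CV of those 250 miRNAs was 27.4%, with quartiles at 18.8% and 38.8%. *MiR-130a* varied more, with a CV of 38.1%, although counting error alone would give 2.02% at its mean read count. Its spread rested on CNLX15, since without that library its CV was 19.1%, beside a median of 22.5% for the same 250 miRNAs, and over the Holstein libraries alone it was 15.8%. *MiR-130b*, at 41.8%, also varied more than its counting error of 12.5%. For *miR-454* the CV was 27.6% beside a counting error of 18.4%. The CV of *miR-301b* was 64.3%, and counting error alone would give 31.5% at its mean read count.

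The breeds were compared to ask whether the family differs between cows of different dairy performance. In Holstein, the normalized read counts of *miR-130a* were 1636 in CNLX1, 2143 in CNLX3, 2245 in CNLX5, 1569 in CNLX7 and 2025 in CNLX9. In Montbéliarde they were 2593 in CNLX13, 4965 in CNLX15, 2345 in CNLX17, 2557 in CNLX19, 2840 in CNLX21 and 1871 in CNLX23. On this scale CNLX15 stood far above the rest, a distance that depends on the scaling, as given further below. In Montbéliarde, 5 of the 6 libraries were above every Holstein library, whereas CNLX23 fell among the Holstein values. The Holstein mean was 1924 ± 304 (SD, n = 5), and the Montbéliarde mean was 2862 ± 1080 (SD, n = 6). The log2 fold change, Montbéliarde over Holstein throughout, was 0.57 (standard error 0.22, 95% confidence interval 0.097 to 1.04). This did not pass the test over all miRNAs (edgeR's quasi-likelihood test, unadjusted p = 0.0214, adjusted p = 0.246 with Benjamini-Hochberg adjustment), where *miR-130a* ranked 47 of 550 by p. Without CNLX15 the log2 fold change was 0.43 with an adjusted p of 0.233 from the same edgeR test.

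For *miR-301a*, the second most abundant member, the Holstein libraries had normalized read counts of 632, 638, 702, 694 and 728 in the order of their tags. The Montbéliarde libraries had 515 in CNLX13, 709 in CNLX15, 667 in CNLX17, 557 in CNLX19, 730 in CNLX21 and 613 in CNLX23. The Holstein range lay inside the Montbéliarde range, and the log2 fold change was -0.11 (standard error 0.15, 95% confidence interval -0.44 to 0.22, adjusted p = 0.789 from edgeR). CNLX15, the highest library for *miR-130a*, was not the highest for *miR-301a*.

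*MiR-130b*, a repressor of *PPARG* in fat cell precursors, had normalized read counts of 51.8, 32.8, 36.2, 77.8 and 70.4 in the Holstein libraries in tag order. In Montbéliarde it was at 60.0 in CNLX13, 117 in CNLX15, 42.0 in CNLX17, 36.8 in CNLX19, 84.5 in CNLX21 and 65.1 in CNLX23. The breeds overlapped over most of their range, and CNLX15 was again the highest library. The log2 fold change was 0.32 (standard error 0.33, 95% confidence interval -0.39 to 1.02, adjusted p = 0.713 from edgeR).

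*MiR-301b*, the neighbour of *miR-130b*, was counted with 5 to 12 reads in the Holstein libraries and with 2 to 28 in the Montbéliarde libraries. Its normalized read counts in Holstein were 8.78, 5.12, 4.83, 7.91 and 6.52 in tag order. In Montbéliarde they were 3.33 in CNLX13, 16.2 in CNLX15, 16.5 in CNLX17, 6.78 in CNLX19, 23.7 in CNLX21 and 7.84 in CNLX23. Hence 3 Montbéliarde libraries were above every Holstein library and 1 was below them all. The 2 reads in CNLX13 were 3.29e-05% of its total, with a Wilson 95% confidence interval of 9.01e-06 to 0.00012%, which covers counting error only. The log2 fold change was the largest of the family at 0.90 (standard error 0.44, 95% confidence interval -0.028 to 1.83, unadjusted p = 0.0563 and adjusted p = 0.348 from edgeR). Without CNLX21, which had the most reads, it was 0.60.

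*MiR-454*, transcribed within the same host gene as *miR-301a*, had normalized read counts of 42.1, 27.6, 26.5, 37.6 and 20.8 in the Holstein libraries in tag order. The Montbéliarde libraries had 18.3 in CNLX13, 31.2 in CNLX15, 19.5 in CNLX17, 23.2 in CNLX19, 26.2 in CNLX21 and 23.5 in CNLX23. CNLX1 and CNLX7 were above all Montbéliarde libraries, and the remaining Holstein libraries lay within their range. The log2 fold change was -0.39 (standard error 0.25, 95% confidence interval -0.93 to 0.15, adjusted p = 0.479 from edgeR). Without CNLX1 it was -0.20.

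Thus 0 of the 5 members passed an adjusted p of 0.05 with edgeR, beside 2 of all 550 miRNAs tested (0.364%). DESeq2 and limma-voom also called none of the 5. Over all miRNAs, DESeq2 called 20 of the 462 to which it gave an adjusted p, and limma-voom called 2 of 550. At an unadjusted p of 0.05, *miR-130a* alone passed with each of the 3 tools, beside 14.2% of all miRNAs tested with edgeR, of which 7.64% were higher in Montbéliarde and 6.55% higher in Holstein. No member had breeds that did not overlap, compared with 11 of all 550 miRNAs tested (2%). The signs were positive for *miR-130a*, *miR-130b* and *miR-301b* and negative for *miR-301a* and *miR-454*, which share a host gene, and each sign held in all 19 alternatives run. The confidence intervals included differences of more than 2-fold in 1 direction for *miR-130a*, *miR-130b* and *miR-301b*, so that the missed threshold does not show equal levels.

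**Figure D2:**
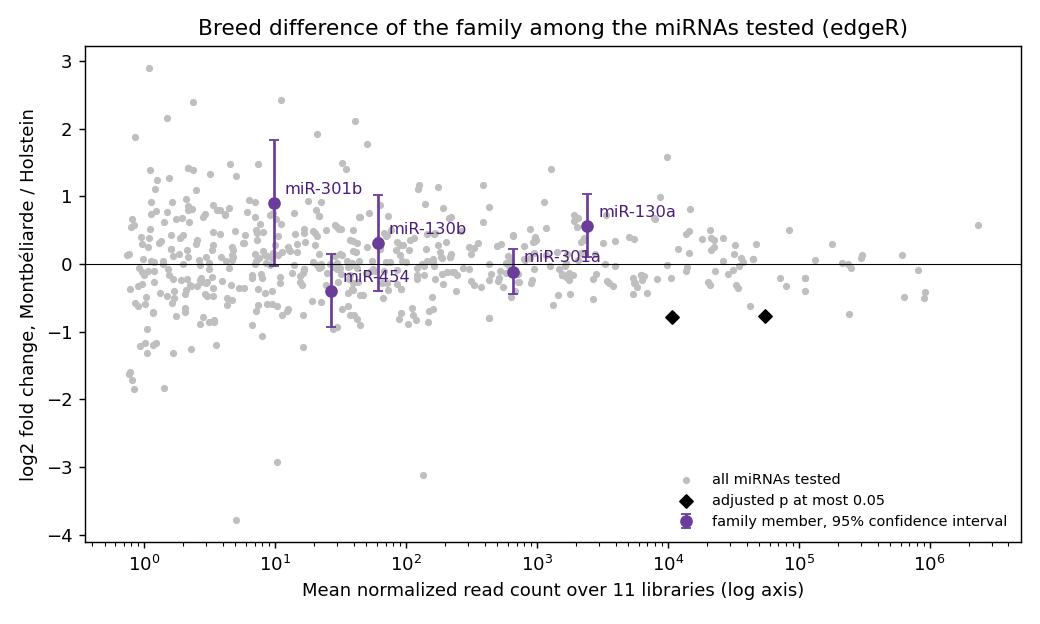
Log2 fold change between the breeds, Montbéliarde over Holstein, against the mean normalized read count (log axis) for the 550 miRNAs tested (grey), with those past the threshold as black diamonds. The 5 members (purple, bars are 95% confidence intervals) lie within the cloud, from 0.90 for *miR-301b* to -0.39 for *miR-454*, and only the interval of *miR-130a* leaves out 0.

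The make-up of the family was then examined, because shares within the family need no normalization between libraries. *MiR-130a* supplied 71.1% ± 3.93 of the family's reads in the 5 Holstein libraries and 78.6% ± 4.48 in the 6 Montbéliarde libraries (mean ± SD). *MiR-301a* supplied 25.4% ± 2.67 and 18.5% ± 4.14. The highest share of *miR-130a*, 85.0%, and the lowest of *miR-301a*, 12.1%, were both found in CNLX15, and the lowest share of *miR-130a*, 65.8%, in CNLX7. The 3 rarer members together made up the rest, with means over all libraries of 1.95% for *miR-130b*, 0.912% for *miR-454* and 0.304% for *miR-301b*. As a share of all counted reads, the family held 0.0275% ± 0.0020 in Holstein and 0.0361% ± 0.0082 in Montbéliarde, where CNLX15 had 0.0511%. No test of these shares was run.

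**Figure D3:**
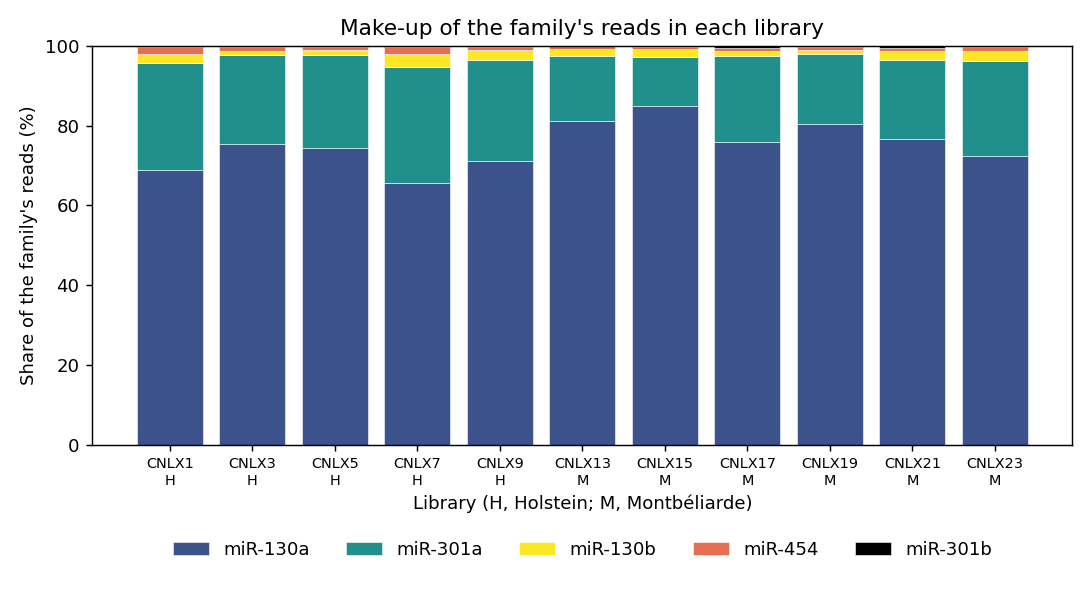
Share of the family's reads (%) taken by each member in the 11 libraries, Holstein (H) and Montbéliarde (M). *MiR-130a* ranges from 65.8% in CNLX7 to 85.0% in CNLX15, and *miR-301a* makes up most of the remainder.

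The ratio of *miR-130a* to *miR-301a* reads, a pair singled out after its values were seen and therefore not tested, was 2.59, 3.36, 3.20, 2.26 and 2.78 in the Holstein libraries in tag order. It was 5.04 in CNLX13, 7.01 in CNLX15, 3.52 in CNLX17, 4.59 in CNLX19, 3.89 in CNLX21 and 3.05 in CNLX23. The ratio in 5 of the 6 Montbéliarde libraries was above every Holstein ratio.

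Members with neighbouring genes were compared next, because transcripts made together could be expected in a fixed ratio. The count of *miR-301a* was 15.0 to 34.9 times that of *miR-454* in Holstein and 22.7 to 34.2 times in Montbéliarde, with medians of 23.1 and 27.0. The difference in mean log2 ratio, Montbéliarde minus Holstein, was 0.22 (exact permutation test, two-sided, p = 0.320, adjusted p = 0.525 over 4 pairs). The count of *miR-130b* was 5.90 to 10.8 times that of *miR-301b* in Holstein and 2.55 to 18 times in Montbéliarde. The upper value came from CNLX13, where 36 reads stood against 2 and the exact 95% counting interval of the ratio was 4.63 to 154. Here the difference was -0.37 (p = 0.394, adjusted p = 0.525 from the same exact test).

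The pairs that carry the same family number were compared in the same way. *MiR-130a* had 20.2 to 65.4 times the reads of *miR-130b* in Holstein and 28.7 to 69.5 times in Montbéliarde, a difference of 0.21 in mean log2 ratio (exact permutation test, p = 0.554, adjusted p = 0.554). *MiR-301a* had 72.0 to 145 times the reads of *miR-301b* in Holstein and 30.9 to 154.5 times in Montbéliarde. Its median ratio was 112 in Holstein and 60.9 in Montbéliarde, and the difference of -0.78 in mean log2 ratio missed the threshold (exact permutation test, p = 0.0563, adjusted p = 0.225). The value of 154.5 was again that of CNLX13, with an exact 95% counting interval of 42.4 to 1281.

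**Figure D4:**
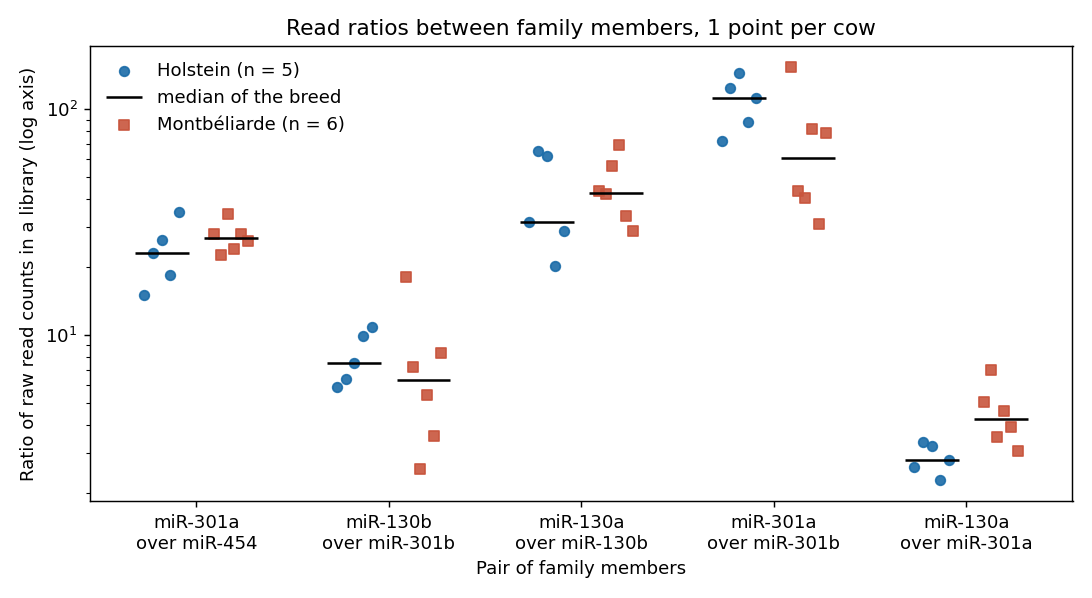
Ratio of raw read counts (log axis) between family members within a library, 1 point per cow, with a black line at the median of each breed. Ratios to *miR-301b* spread most, from 30.9 to 154.5 for *miR-301a* in Montbéliarde, and the *miR-130a* to *miR-301a* ratio is the one in which most Montbéliarde libraries lie above the Holstein range.

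Whether the members rose and fell together from cow to cow was examined on log2(CPM + 1), where CPM are read counts scaled by TMM library size. Over the 11 libraries, Pearson's r of the 10 pairs of members lay between -0.22 and 0.51, and none passed a permutation test, with adjusted p-values from 0.350 to 0.924. For *miR-130b* and *miR-301b*, r was 0.50 (permutation p = 0.114, adjusted p = 0.350) and Spearman's rho 0.59 (permutation p = 0.0618, adjusted p = 0.385). Without the 2 libraries farthest from the median of *miR-130b*, r was 0.32. For *miR-301a* and *miR-454*, r was 0.42 (permutation p = 0.203, adjusted p = 0.350) and rho 0.52 (permutation p = 0.107, adjusted p = 0.385), and r was 0.24 without the 2 farthest libraries. The highest r belonged to *miR-301a* and *miR-301b*, 0.51 (permutation p = 0.109, adjusted p = 0.350), with rho at 0.46 (permutation p = 0.154, adjusted p = 0.386). That relation rested on CNLX13 and CNLX21, without which r was -0.091. With the breed means subtracted it was 0.82 (permutation within breeds, p = 0.00851, adjusted p = 0.0851), and over the 6 Montbéliarde libraries alone it was 0.95. Both values include CNLX13 and CNLX21. The other pairs of members had r of 0.36 to 0.72 over the Montbéliarde libraries, and r over the Holstein libraries alone was not computed. Over all 11 libraries, *miR-130a* showed r between -0.22 and 0.43 with the other members. Without CNLX15 and CNLX21, the 2 libraries farthest from its median, these values were -0.70 to -0.32. With the breed means subtracted and all 11 libraries kept, they were 0.12 to 0.34. All of these relations share the library scaling, and those of *miR-301b* rest on few reads.

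The miRNAs outside the family whose levels were most like each member over the 11 libraries were listed as a description, among 247 miRNAs with a mean normalized read count of at least 50. For *miR-130a* they were *miR-3604* and *miR-199a-3p*, each with a Pearson's r of 0.95, and *miR-455-5p* with 0.93. *MiR-199a-3p* is known from fibroblasts and other mesenchymal cells, and *miR-455* from cartilage. The counts of *miR-3604* were 0.976 to 0.988 times those of *miR-199a-3p* in every library, so that both may count the same reads. Without CNLX15, r was 0.88 for *miR-3604* and *miR-199a-3p* and 0.91 for *miR-455-5p*, and with the breed means subtracted it was 0.93, 0.93 and 0.91. The normalized read counts of *miR-199a-3p* were 5108 to 6584 in Holstein and 5276 to 18352 in Montbéliarde, with CNLX15 highest and CNLX23 lowest of its breed, as for *miR-130a*.

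The other members resembled other miRNAs, and less closely. *MiR-130b* was most like *miR-493* (r = 0.81), *miR-296-3p* (0.76) and *miR-223* (0.73), the last a miRNA of myeloid cells. *MiR-301a* was most like *miR-424-5p* (0.81), *miR-3432a* (0.80) and *miR-185* (0.77). For *miR-301b* the highest values were 0.77 with *miR-493*, 0.75 with *miR-99b* and 0.74 with *let-7c*, and for *miR-454* they were 0.76 with *miR-23a*, 0.65 with *let-7i* and 0.59 with *miR-450a*. None of the miRNAs named as most alike passed the breed test, with adjusted p-values of 0.171 to 0.970 from edgeR. The study, which used DESeq2, reported *miR-455-5p* among them as differentially expressed and higher in Montbéliarde.

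**Figure D5:**
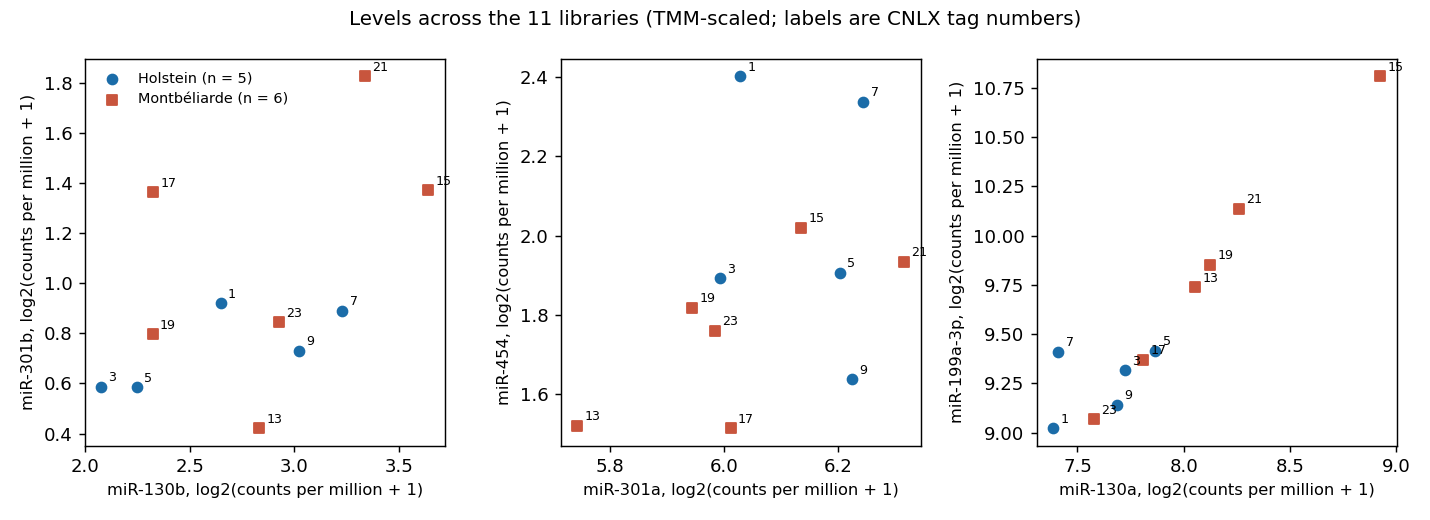
Levels on the log2(CPM + 1) scale, with CPM scaled by TMM, in the 11 libraries for *miR-130b* and *miR-301b* (left), *miR-301a* and *miR-454* (middle) and *miR-130a* and *miR-199a-3p* (right), labelled by tag number. The neighbouring genes scatter widely, with r of 0.50 and 0.42, whereas *miR-130a* and *miR-199a-3p* lie close to a line (r = 0.95, and 0.88 without CNLX15).

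Marker miRNAs of the cell types a biopsy can hold were examined beside these values, and none passed the breed test. The summed normalized read count of the 6 stromal miRNAs was 1513729 to 2305715 in Holstein and 1928358 to 3870328 in Montbéliarde, and CNLX15 had the highest sum. *MiR-143* made up 99.3% of this sum, and the other 5 stromal miRNAs summed to 11478 to 15782 in Holstein and 12204 to 32234 in Montbéliarde, again highest in CNLX15. Of the 6, 5 had a positive log2 fold change, compared with 288 of all 550 miRNAs tested. None of the 6 passed the test with edgeR, although *miR-143* (0.58, adjusted p = 0.171) and *miR-199a-3p* (0.67, adjusted p = 0.246) had an unadjusted p below 0.05. *MiR-145*, which is transcribed with *miR-143* and was named after its value was seen, had a log2 fold change of -0.27 (adjusted p = 0.649 from edgeR). The 6 epithelial miRNAs summed to 367535 to 466746 in Holstein and 180093 to 469496 in Montbéliarde, and *miR-141* made up 71.8% of this sum. Of the 6, 5 had a negative log2 fold change. *MiR-141* (-0.74, adjusted p = 0.217 from edgeR) and *miR-200c* (-0.61, adjusted p = 0.322) had the lowest p. The exception was *miR-205* (0.38, adjusted p = 0.348 from edgeR), named after its value was seen. The sums of the 5 leukocyte miRNAs were 18031 to 26952 in Holstein and 17229 to 39422 in Montbéliarde, with the highest in CNLX15. The most abundant of them made up 86.8% of the sum. All 5 had a positive log2 fold change, with a median of 0.40. The lowest edgeR p-values among them belonged to *miR-155* (0.53, adjusted p = 0.396) and *miR-150* (0.40, adjusted p = 0.491). The part of cell composition in the *miR-130a* values was not tested.

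The other marker lists overlapped between breeds as well. The 2 endothelial miRNAs, *miR-126-3p* (-0.11) and *miR-126-5p* (-0.056), summed to 251466 to 330168 in Holstein and 239684 to 297167 in Montbéliarde. *MiR-126-5p* made up 91.7% of this sum. The 3 erythroid miRNAs reached 23603 to 39552 in Holstein and 23429 to 57421 in Montbéliarde, and *miR-486* made up 93.1% of the sum. All 3 had a positive log2 fold change, with the lowest p for *miR-451* (0.36) and *miR-486* (0.15). Of the 5 muscle miRNAs listed, 4 were in the table, with sums of 618 to 1849 in Holstein and 519 to 1620 in Montbéliarde. The most abundant of them made up 90.1% of the sum. Of the 4, 3 had a positive log2 fold change, and *miR-1* (0.70) and *miR-499* (-0.46) had the lowest p. No member of these lists passed the test, with adjusted p-values of at least 0.452 from edgeR.

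MiRNAs with a related function were counted in the same fit. The miR-148, miR-152 and miR-19 miRNAs have a seed that overlaps that of the family, shifted along the miRNA, and their targets differ in large part. All 7 were tested and 0 passed an adjusted p of 0.05 with edgeR, but each had a negative log2 fold change, with a median of -0.48 compared with 0.027 for all 550 miRNAs tested. Of all 550, 288 had a positive log2 fold change. *MiR-19b* (-0.60, adjusted p = 0.171) and *miR-19a* (-0.76, adjusted p = 0.171), both of the miR-17-92 cluster, had an unadjusted p below 0.05. The study, which used DESeq2, reported both as differentially expressed and lower in Montbéliarde. *MiR-148c* and *miR-152* had nearly equal counts in every library, with a ratio of 0.999 to 1, and do not count as separate evidence. Of the 9 miRNAs known from lipid metabolism, 0 passed, 6 had a positive sign, and the median log2 fold change was 0.16. Only *miR-143* among them had an unadjusted p below 0.05, and the next was *miR-103* (-0.27, adjusted p = 0.459), an intronic miRNA of a *PANK* gene. *MiR-27a-3p* and *miR-27b*, which repress *PPARG* as the family does, had log2 fold changes of 0.16 and 0.090 (adjusted p = 0.632 and 0.811 from edgeR).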

How the data were processed

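The authors trimmed adaptors, filtered reads by size and quantified them with ncPRO-seq and miRDeep2 against the btau5.0.1 genome and miRBase. They deposited raw counts per mature miRNA and library, and a signal, the normalized read counts, obtained by dividing the counts of a library by its size factor (DESeq2 1.18.1 in the submitters' processing notes). Their deposited breed means, log2 fold changes and p-values were not used. The treatment of reads compatible with several miRNAs is not given in the sources used here.

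Breeds were compared on the counts with edgeR 4.0.16 (R 4.3.3): TMM normalization, glmQLFit with robust fitting, glmQLFTest and Benjamini-Hochberg adjustment over the 550 miRNAs with at least 10 counts in sum. DESeq2 1.42.0, limma 3.58.1, other scalings and filters, and leaving out each library were alternatives. Each fit was tested on simulated data. Read ratios used log2 of count + 1 and exact two-sided permutation tests over 462 splits. Correlations used 100000 permutations; likeness without CNLX15 or with breed means subtracted, CVs with 1 library left out and marker sums without the most abundant marker were added after seeing the data. At depths of 6087865 to 16808976 counted reads, counting error was largest for *miR-454* and *miR-301b*, and intervals on counts cover counting error only. Members and lists were chosen with earlier results of these data known, which limits every p-value given for them. Named were the members, the 3 miRNAs most like each, and from each list those past the threshold or the 2 with the lowest p. *MiR-27a-3p*, *miR-27b*, *miR-145*, *miR-205* and *miR-152* with *miR-148c* were named outside this rule, after their values were seen. A planned search for further miRNAs with the same seed was not run. Gene neighbours came from RefSeq on ARS-UCD2.0, in which all 5 members were matched. Plots used matplotlib 3.10.9.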

Additional observations from a re-analysis of the deposited data

Results flagged for a closer look

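Among 20 sets of values of 1 breed (the levels of the 5 members, their 4 read ratios and the share of the family), 1 held a library far from the others. The normalized read count of *miR-130a* in CNLX15, 4965, was separated from the next Montbéliarde library by 0.687 of the range of the breed, above the limit of 0.625 for 6 samples in Dixon's test. Chance flags about 1 in 20 such sets. The library size used to scale CNLX15 was 7827725 with DESeq2's size factors, but 15125263 when scaled to *miR-26a*, *miR-92a* and *miR-191*. With the latter, CNLX15 would not be the highest library for *miR-130a*, so this flag depends on the scaling.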

How the results depend on the processing

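None of the 5 members passed the threshold in any of the 19 alternatives, 8 of method and 11 that left out 1 library, and no log2 fold change of a member changed sign. That of *miR-130a* was 0.49 to 0.62 with other methods and 0.43 to 0.66 with 1 library left out, its adjusted p was 0.123 to 0.432, and its unadjusted p exceeded 0.05 once, at 0.0543 without CNLX7. The other members had adjusted p-values of 0.208 to 0.950, and their log2 fold changes were 0.19 to 0.52 for *miR-130b*, -0.13 to -0.029 for *miR-301a*, 0.60 to 1.11 for *miR-301b* and -0.50 to -0.20 for *miR-454*. Over all miRNAs tested, 20 of the 462 with an adjusted p passed with DESeq2, against 2 of 550 with edgeR and TMM. With DESeq2's size factors in edgeR or scaled to *miR-26a*, *miR-92a* and *miR-191*, 0 passed, and 0 to 6 passed with 1 library left out. The reason was not tested.

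The order of levels held in each breed alone. In Holstein the log2 steps were 1.49, 3.72, 0.74 and 2.07, and 5 libraries cannot give an exact p below 0.0625. With 1 library left out, the breed difference in the log2 ratio of *miR-130a* to *miR-130b* was -0.0078 (without CNLX7) to 0.41. Pearson's r of *miR-130a* with *miR-301a* was -0.067 when scaled to the 3 control miRNAs, and -0.12 to 0.18 with 1 library left out. Its r with *miR-454* was -0.59 when scaled to the 3 control miRNAs. It was 0.12 with breed means subtracted and -0.54 to 0.011 with 1 library left out. The r of *miR-130a* with *miR-130b* was -0.047 (without CNLX15) to 0.58, and that of *miR-301b* with *miR-454* -0.044 to 0.32. Of 385 alternative values, 357 kept their direction and their side of the threshold or stayed within the spread. No paired analysis was possible because the breeds are different cows and the sample titles give them no number in common. For *miR-301b*, with 2 to 28 reads per library, depth limits what can be seen.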
